A study of Drosophila melanogaster with 30 samples.

Results

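Imaginal discs are sacs of larval epithelium that form the adult appendages at metamorphosis. When a disc of Drosophila melanogaster is placed in the abdomen of an adult fly, the host's body fluid serves as a culture medium, a classical way to keep discs alive outside the larva. The analysis below describes what 24 h of such culture did to the messenger RNA of the anterior region of prothoracic leg discs that had not been cut. Uncut anterior regions after 24 h of culture (3 samples) were set against anterior regions of uncut discs taken without culture (0 h, 3 samples). The members were all 3018 rows of the authors' deposited table of culture comparisons, out of 18952 probe sets on the Affymetrix array. Of these rows, 15 were manufacturer's controls and 3003 were other probe sets. The table's own gene names covered 2831 of them, which came to 2718 genes, and 172 carried no name.

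The series holds 30 arrays in 10 groups of 3 biological replicates. Those used here are uncut anterior 1/4 regions cultured for 24 h, uncut posterior 3/4 regions cultured for 24 h, uncut anterior regions cultured for 12 h, and the anterior and posterior regions of uncultured discs. Every group, uncultured ones included, came from male larvae of 100 h, which were w/Y and carried AyGAL4, UAS-GFP/+ as well as puc[E69-I]-GAL4/UAS-flp. In such discs a GAL4 driver at puc, which encodes a phosphatase that JNK signalling induces, starts a permanent GFP label. The 24 h and 0 h discs thus share the drivers and the white mutation. The labels do not say how many discs went into a sample. Cultured discs were kept in abdomens of adult females at 25 °C, and each cultured disc was therefore also older than an uncultured one by the time in culture. Age in the host and culture itself cannot be told apart in this design. RNA was amplified in a 2-cycle protocol before hybridization.

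The deposited array values are centred on each probe set's mean over the 30 arrays, so a value of 0 is that mean and levels of different genes cannot be compared. They are read here as log2 values, the usual scale of RMA (robust multi-array average), since the files do not write the base. Each difference was tested with limma over all 18769 probe sets that are not controls, with Benjamini-Hochberg adjustment, and a gene is said to pass where the adjusted p was below 0.05. Intervals are 95% intervals from that fit. Across the whole array 6020 probe sets passed in the 24 h comparison, which is 32.1%: 14% were higher after culture and 18.1% were lower. The authors had filtered the table on an overall p that includes this comparison, with a largest listed adjusted p of 0.000995, so a high share of calls among its rows is built in. Genes outside the table are described as not listed.

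The arrays themselves differed between 24 h and 0 h. The actin control is probed near both ends of its transcript, and the 3′ minus 5′ signal was 0.972, 0.592 and 0.716 in the 24 h anterior samples, against -0.289, -0.921 and -1.783 in the 0 h anterior samples (log2, relative to the mean over all arrays). The difference was 1.76 for actin, 1.39 for GAPDH and 0.603 for eIF-4a, and the actin difference was 0.898 between 12 h and 0 h and 0.666 between 24 h and 0 h in the posterior region. Hybridization controls added at fixed amounts (bioB, bioC and bioD) averaged -0.891, -0.219 and -0.247 in the 24 h samples and -0.063, 0.293 and 0.925 in the 0 h samples. In these values the 24 h replicate 1 and the 0 h replicate 3 stood farthest from their groups. Scaling the arrays on these controls moved the median of all probe sets by 0.837, to 0.777 from -0.0606 as deposited. Every change below is therefore relative to the arrays' own centre, and a fall smaller than 0.837 would carry the opposite sign on the control-scaled values. Adding the actin 3′ minus 5′ signal to the fit as a covariate left 2086 probe sets past the threshold in place of 6020. The covariate follows the culture groups closely. Some calls ended with a log2 value near 0, such as EcR (1.22 as deposited and 0.06 with the covariate). Others ended with a value no smaller than before, such as MtnA (1.45 and 2.15). The part of RNA quality in the results was not tested. Genes of the lists and other named genes whose call ended with the covariate are given as such beside their values. Genes named only as neighbours, further probe sets of a gene and the probe set without a name were not followed into that fit.

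**Figure D1:**
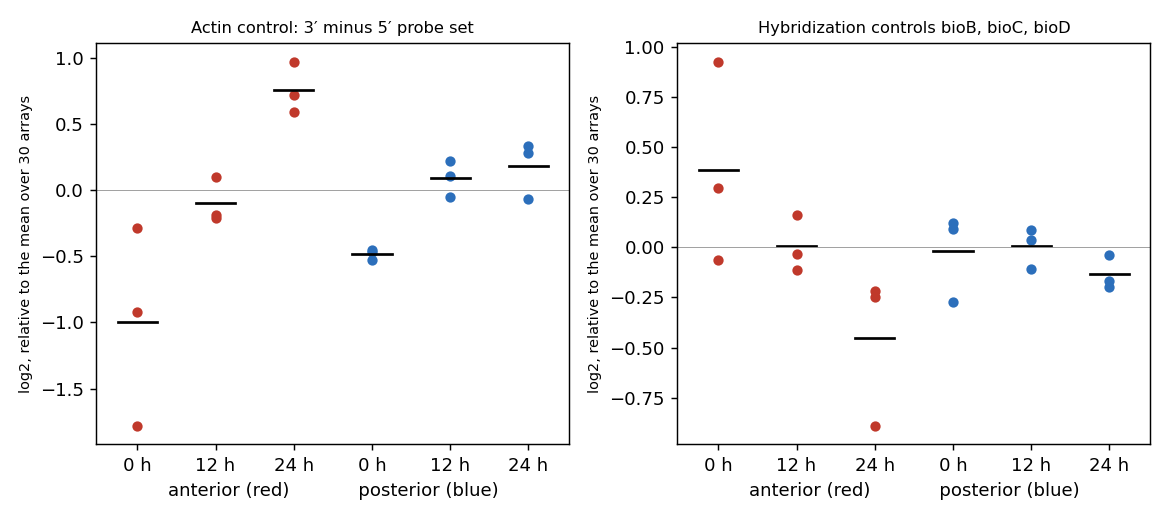
Control signals on each array by hours of culture, for uncut anterior (red) and posterior (blue) regions, with bars at group means, in log2 units relative to the mean over 30 arrays. The left panel shows the actin 3′ minus 5′ signal, which averaged 0.76 in the 24 h anterior samples and -0.998 in the 0 h anterior samples. The right panel shows the hybridization controls, which averaged -0.452 and 0.385 in the same groups.

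After 24 h in the abdomen, the named genes with the largest rises in the anterior region were Cpr100A and Lcp65Ad, which encode cuticle proteins. Ude, the chitin deacetylase gene Cda5, CG6142 and Thor, which encodes the translational repressor 4E-BP, came next. The largest falls were those of the cuticle gene Cpr49Ac and of ImpE1 and ImpE2, genes named for their induction by the moulting hormone ecdysone in imaginal discs. Subunits of the respiratory chain, the mitochondrial ribosome and the proteasome were lower by smaller amounts, in nearly every listed member, as deposited. Of the 2718 listed genes, 1361 rose and 1194 fell, and 163 did not pass the test, beside the 32.1% of probe sets that passed on the whole array. A change of 2-fold or more was seen in 452 genes that rose and 275 that fell, while on the whole array 3.35% of probe sets were higher and 1.7% lower with such a change (5.05% in all). The median difference was 0.357 over the member probe sets and -0.0606 over all probe sets tested. Each listed gene was represented by the probe set with the smallest residual spread. Several rows were listed for 86 genes, and in some of them, such as Mmp1 and fzy, the rows differed in sign.

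Cuticle proteins bind chitin in the exoskeleton, and Cpr100A had the largest rise of all named members. It lay at 2.04, 2.84 and 4.54 in the 24 h samples, against -3.73, -2.85 and -3.31 in the 0 h samples, a 86.8-fold rise (interval 27.7 to 271.5, adjusted p = 6.79e-07). All 24 h samples were above all 0 h samples, and the 24 h samples spread widely. Lcp65Ad, a larval cuticle protein gene, was similar, at 0.94, 2.70 and 3.69 in the 24 h samples and -2.30, -2.79 and -2.45 in the 0 h samples, or 31.1-fold higher (12.5 to 77.4). TwdlE, of the Tweedle family of cuticle proteins, rose 10.8-fold. Its samples lay at 0.73, 0.67 and 1.73 after 24 h and at -2.84, -2.38 and -1.96 at 0 h. Cpr64Aa rose by 2.97 ± 0.45 (log2, SE), Cpr66D by 2.59 and Cpr51A by 2.56. The list of cuticle proteins held 128 genes, of which 9 were listed. Of these, 7 rose and 2 fell, with a median of 2.59. With the covariate 6 rose and 1 fell. Among the 7 is Cpr, cytochrome P450 reductase, which shares the name prefix and is no cuticle gene. It rose by 0.57, its groups overlapped, and its call ended with the actin covariate (0.06, adjusted p = 0.931). Cpr49Ac moved the other way and had the largest fall of all members. It lay at -1.91, -2.41 and -2.33 in the 24 h samples and at 3.77, 2.44 and 2.15 in the 0 h samples, 32.0-fold lower (15.2 to 67.7, adjusted p = 5.33e-08).

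Enzymes and binding proteins of chitin, the polymer that cuticle proteins coat, mostly rose. Cda5, a chitin deacetylase, lay at 1.12, 1.38 and 1.90 in the 24 h samples, against -2.50, -3.17 and -3.22 in the 0 h samples, 21.6-fold higher (15.9 to 29.4, adjusted p = 1.76e-13). Its samples formed tight groups with a wide gap. The chitin-binding obstructor genes obst-E and obst-B rose 13.1-fold (8.79 to 19.5) and 5.66-fold (4.48 to 7.13). The deacetylases serp and verm rose by 1.22 ± 0.14 and 0.96 ± 0.19, and kkv, the chitin synthase, by 0.54 ± 0.13. The calls of verm and kkv ended with the actin covariate (0.83, adjusted p = 0.185, and 0.31, adjusted p = 0.5). Of 30 genes on the list, 16 were listed, with 11 that rose and 5 that fell (median 0.742). The 5 that fell were neo, nyo, m and dy, which encode zona pellucida domain proteins of the apical extracellular matrix, and the chitinase Cht10. The neo gene lay at -1.05, -1.45 and -1.82 in the 24 h samples and at 1.46, 1.16 and 1.20 in the 0 h samples, so its groups were far apart. It was 6.55-fold lower (4.41 to 9.74), and nyo, m and dy fell by 2.16, 1.39 and 1.23. The call of m ended with the covariate (-1.03, adjusted p = 0.226). With the covariate 5 of the 16 rose and 4 fell. Scaling on the hybridization controls left 2 of the 5 falls.

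Among enzymes that harden and colour cuticle, 7 of 20 were listed, of which 4 rose and 2 fell. Ddc, the dopa decarboxylase, lay at -0.03, -0.47 and 0.98 in the 24 h samples and -3.47, -0.75 and -1.87 in the 0 h samples. Its 0 h samples spread widely, and its 4.56-fold rise (2.01 to 10.3, adjusted p = 0.00444) did not pass after quantile normalization (1.43, adjusted p = 0.13) or with array weights (1.91, adjusted p = 0.0677). Of the yellow family, yellow-c and yellow-b rose by 1.48 and 1.36, whereas yellow-e fell by 1.06. The rise of yellow-c ended with the covariate (1.02, adjusted p = 0.302).

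**Figure D2:**
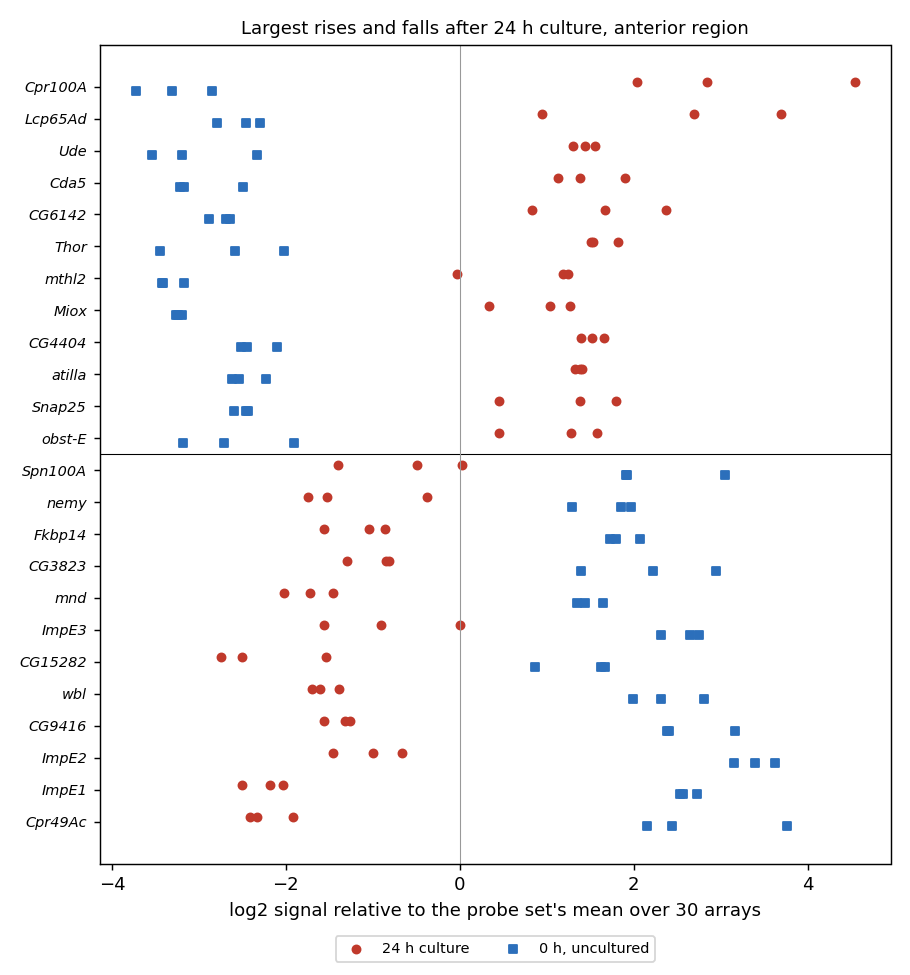
Array values of the 12 listed genes with the largest rise (upper block) and the 12 with the largest fall (lower block) after 24 h of culture, as log2 signal relative to each probe set's mean over 30 arrays. Red circles are the 3 samples of 24 h and blue squares the 3 samples of 0 h. In none of the 24 genes do the groups overlap, and the span of the 24 h samples is widest for Lcp65Ad and Cpr100A.

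Ecdysone acts through a nuclear receptor, EcR, which switches on a cascade of transcription factors and effector genes before pupariation. Effectors of the cascade were far lower after 24 h of culture. ImpE1 lay at -2.18, -2.03 and -2.51 in the 24 h samples, against 2.53, 2.57 and 2.73 in the 0 h samples, 28.8-fold lower (20.3 to 40.9, adjusted p = 3.09e-13). Its other 2 listed probe sets fell by 2.97 and 1.86. ImpE2 lay at -1.45, -0.66 and -0.999 in the 24 h samples and 3.63, 3.16 and 3.40 in the 0 h samples, 21.6-fold lower (8.57 to 54.3). These samples left a gap of several log2 units between the groups. ImpE3 was 10.5-fold lower (5.76 to 19.1), with 24 h values of -1.56, -0.90 and 0.01 against 0 h values of 2.76, 2.31 and 2.65. The transcription factors of the cascade divided. Eip75B, Hr4, Eip78C and Hr39, nuclear receptors of the early and early-late response, fell by 1.82, 0.94, 0.73 and 0.59, and the early gene br fell by 0.87. The repressor genes vri and Blimp-1 fell by 0.92 and 0.69. The calls of Hr4, Eip78C, Hr39 and Blimp-1 ended with the covariate (adjusted p = 0.165, 0.15, 0.541 and 0.0638), at -0.90, -0.55, -0.30 and -0.77. ImpL2, whose secreted product binds insulin-like peptides, fell by 1.43, and that call ended with the covariate (-0.74, adjusted p = 0.454).

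The 4 ecdysone-list genes that rose were ftz-f1, Eip93F, ImpL1 and EcR itself. The gene ftz-f1, the nuclear receptor of the mid-prepupal stage, lay at 0.91, 1.31 and 1.20 in the 24 h samples and at -1.70, -1.77 and -1.78 in the 0 h samples. All 3 cultured samples were well above the uncultured ones, a 7.42-fold rise (5.75 to 9.57, adjusted p = 1.41e-11). Eip93F, a transcription factor of the later pupal programme, rose by 1.80, and ImpL1 by 1.39, a call that ended with the covariate (1.84, adjusted p = 0.072). EcR lay at 0.59, 0.52 and 0.52 in the 24 h samples and -0.05, -0.63 and -1.35 in the 0 h samples. Its rise of 1.22 ± 0.18 ended with the covariate (0.06, adjusted p = 0.909). Its 3 samples of 0 h had the same order as their actin 3′ minus 5′ signal, and a part of RNA quality in EcR was not tested. In all, 16 of the 24 genes on the list were listed, 4 rose and 12 fell (median -0.8). With the covariate 2 rose and 7 fell, and with scaling on the hybridization controls 4 rose and 4 fell. Of 12 juvenile hormone genes only Jheh1 and Jheh2, epoxide hydrolases that break the hormone down, were listed. They rose 2.30-fold (1.87 to 2.83) and 2.66-fold (2.19 to 3.25).

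Signals of insulin and nutrients pass through the kinases Akt, TORC1 and AMPK to growth and translation. Thor, which binds the cap-binding factor eIF4E and holds back translation, had the sixth largest rise of the named genes. It lay at 1.83, 1.53 and 1.51 in the 24 h samples, against -3.44, -2.02 and -2.58 in the 0 h samples, 19.7-fold higher (12.6 to 30.9, adjusted p = 1.41e-10). The cultured samples lay close together and the uncultured ones farther apart. REPTOR, a transcription factor held inactive by TORC1, rose 3.34-fold (2.74 to 4.07), and its partner REPTOR-BP rose by 1.21. SNF4Agamma, the gamma subunit of AMPK, rose 3.89-fold (3.24 to 4.67). Its samples lay at 0.84, 0.93 and 0.83 after 24 h and -1.03, -1.11 and -1.13 at 0 h, among the tightest groups of the list. Lk6, a kinase of eIF4E, rose by 1.61, Myc by 0.84 and chico, the insulin receptor substrate, by 0.77. The chico and Myc calls ended with the covariate (0.11, adjusted p = 0.798, and 0.34, adjusted p = 0.436). The gene mnd, an amino acid transporter, was 9.28-fold lower (5.67 to 15.2). It lay at -1.46, -1.73 and -2.02 in the 24 h samples and 1.65, 1.44 and 1.35 in the 0 h samples. Of 33 genes on the list 15 were listed, 10 rose and 3 fell (mnd, ImpL2 and srl), and foxo and Ilp8, at 0.32 and -0.38, did not pass. The srl call ended after quantile normalization (adjusted p = 0.0618). The covariate left 5 rises and 2 falls.

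Genes of energy metabolism were lower on the deposited scale. Of 92 respiratory chain genes 47 were listed, and 47 of 47 fell, with a median of -0.859 and a range of -1.60 to -0.421. The count was again 47 after quantile normalization and after median centring, 33 with the actin covariate, and 2 after scaling on the hybridization controls, where the list's median was -0.022. Cyt-c-p, the electron carrier cytochrome c, fell most, at -1.09, -1.11 and -0.97 in the 24 h samples and 0.64, 0.41 and 0.58 in the 0 h samples. It was 3.03-fold lower (2.62 to 3.51, adjusted p = 1.79e-11). The cytochrome oxidase subunits COX8, COX5B and COX5A were 2.64-fold, 2.50-fold and 2.41-fold lower, and the COX5A call ended with the covariate (-0.72, adjusted p = 0.0701). Of complex I, ND-13A at -0.82 ± 0.11 and ND-15 at -0.72 ± 0.10 fell less, and both calls ended with the covariate (adjusted p = 0.102 and 0.113). Ldh, lactate dehydrogenase, lay at -0.997, -1.50 and -1.69 in the 24 h samples and 0.56, 0.44 and 0.53 in the 0 h samples. This was a 3.74-fold fall (1.90 to 7.37) that did not pass with the covariate (-2.65, adjusted p = 0.0752). Only 2 of the 16 glycolysis and lactate genes were listed, Ldh and Hph, a prolyl hydroxylase, at 0.32 ± 0.12. Hph passed in 5 of 13 alternative fits. It did not pass with the covariate or after quantile normalization. Nor did it pass without 24 h replicate 1 or 3 or 0 h replicate 2 or 3 (0.22 to 0.36).

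The ribosome of mitochondria showed a like pattern. Of 73 genes 40 were listed, 39 fell and 1 rose (median -0.841). The mRpS33 gene lay at -0.97, -0.86 and -0.98 in the 24 h samples and 0.68, 0.46 and 0.98 in the 0 h samples, 3.12-fold lower (2.57 to 3.78), with no overlap. The genes mRpL55 and mRpL18 were 2.98-fold and 2.81-fold lower. The exception was mRpS28, which rose by 0.45. Falls numbered 36 after quantile normalization, 21 with the covariate and 4 after scaling on the hybridization controls. Of 93 genes of the cytosolic ribosome 12 were listed, where the members are 3018 of the array's 18952 probe sets. The 12 were mixed, with 3 that rose, 5 that fell and a median of -0.0447. The 3 that rose, RpS28-like, RpL24-like and RpL7-like, are relatives of ribosomal proteins. For RpS9 the probe set used was at -0.05 and did not pass, while another listed one rose by 0.82 (adjusted p = 1.49e-05). Taking the probe set with the largest test statistic for each gene, 4 rose and 5 fell. RpS28-like rose 3.91-fold (2.45 to 6.23). RpLP0-like fell by 1.21. With the covariate 1 rose and 1 fell, where RpL24-like and RpL7-like did not pass, and after scaling on the hybridization controls 8 rose and 0 fell. Of 27 ribosome assembly genes 18 were listed, and 15 fell and 3 rose (median -0.811). The genes nop5, Nopp140, NHP2 and Nop60B, components or helpers of the small nucleolar particles that modify ribosomal RNA, were 2.47-fold, 2.46-fold, 2.45-fold and 2.38-fold lower. For nop5 the values were -0.86, -0.90 and -0.72 in the 24 h samples and 0.63, 0.29 and 0.52 in the 0 h samples. With the covariate 10 assembly genes fell, and with scaling on the hybridization controls 0 fell and 3 rose. The 3 that rose as deposited were Myc, Non1 and rudhira.

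Genes of protein turnover and folding were also lower as deposited. All 29 listed proteasome genes of 48 fell on the deposited scale, by 0.578 to 1.23 (median -0.826), and 0 of 29 fell after scaling on the hybridization controls, with a median of 0.011. Rpt4, an ATPase of the regulatory cap, lay at -0.56, -0.82 and -0.58 in the 24 h samples and 0.90, 0.32 and 0.50 in the 0 h samples, 2.34-fold lower (1.97 to 2.77, adjusted p = 1.73e-08). Prosalpha5 of the core and Rpn12 of the cap were 2.29-fold and 2.24-fold lower. This list held under the covariate, where 27 of 29 fell. Among chaperones of the endoplasmic reticulum 9 of 20 were listed, 8 fell and 1 rose (median -0.776; 1 fell after scaling on the hybridization controls). The largest fall was that of wbl, a disulphide isomerase relative, at -1.61, -1.70 and -1.39 in the 24 h samples and 2.81, 1.99 and 2.31 in the 0 h samples. It was 15.3-fold lower (10.7 to 21.9). Hsc70-3, the BiP chaperone, fell by 0.96 and Xbp1, a transcription factor of the unfolded protein response, by 0.87, both past the threshold also with the covariate. Fkbp14, a prolyl isomerase of the same compartment, was 8.12-fold lower (5.49 to 12.0). Of 22 heat shock genes 2 were listed, and Hsp67Ba fell by 1.45.

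Replication genes were lower as deposited. Of 35 cell cycle and replication genes 12 were listed, 10 fell and 2 rose (median -0.664), with 8 falls under the covariate and 0 after scaling on the hybridization controls. The gene dup, the licensing factor Cdt1, lay at -0.47, -0.63 and -1.14 in the 24 h samples and 0.69, 0.33 and 0.50 in the 0 h samples. Mcm7 of the replicative helicase lay at -0.38, -1.06 and -0.73 in the 24 h samples and 0.78, 0.42 and 0.37 in the 0 h samples. They were 2.39-fold and 2.38-fold lower without overlap. PCNA, the sliding clamp, and RnrS, a subunit of ribonucleotide reductase, fell by 0.92 and 0.93. CycA fell by 0.54, a call that ended with the covariate (-0.66, adjusted p = 0.132). The genes that rose were tum, whose call ended with the covariate (adjusted p = 0.81), and fzy, but the 2 probe sets of fzy went opposite ways, at 0.86 and -1.04. In bulk tissue, fewer cells of a type and less RNA per cell cannot be told apart. All 6 listed apoptosis genes of 16 rose by 0.29 to 0.92, among them p53 (0.60 ± 0.12), the ATR kinase gene mei-41 (0.92 ± 0.16) and Xrp1 (0.75 ± 0.15), a p53 target. With the covariate 4 of the 6 rose. The mei-41 call ended with the covariate (adjusted p = 0.398), and that of Buffy, a Bcl-2 relative at 0.70 ± 0.20, ended after quantile normalization and without 24 h replicate 2 (0.59).

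**Figure D3:**
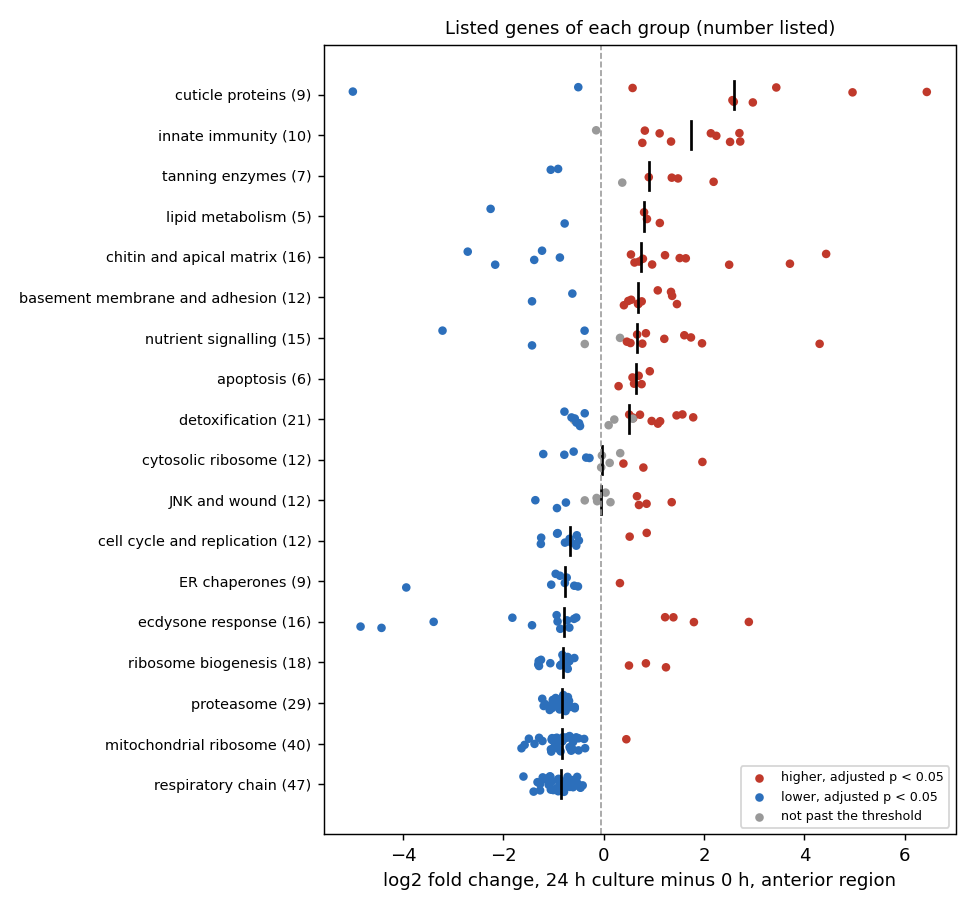
Log2 difference of 24 h minus 0 h anterior samples for every listed gene of the 18 gene groups with at least 5 listed genes. Red and blue points are higher and lower past the threshold, grey points did not pass, black bars are group medians and the dashed line is the median of all probe sets, -0.0606. The respiratory chain, mitochondrial ribosome and proteasome lie at medians of -0.859, -0.841 and -0.826 as deposited, and at -0.022, -0.003 and 0.011 after scaling on the hybridization controls.

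Immune genes rose. Bacterial peptidoglycan is sensed by PGRP proteins, which feed the Toll and Imd pathways and their antimicrobial effectors. Of 70 genes on the list 10 were listed, and 9 rose (median 1.74), with Dif at -0.152 not past the threshold. PGRP-SA, a sensor of the Toll pathway, lay at 0.22, 0.04 and 0.48 in the 24 h samples, against -2.55, -2.31 and -2.51 in the 0 h samples, 6.51-fold higher (4.94 to 8.59, adjusted p = 1.04e-10). PGRP-LC, the Imd receptor, and PGRP-LF, which dampens it, rose 4.73-fold (3.36 to 6.67) and 5.73-fold (3.85 to 8.52). They lie next to PGRP-LA on the chromosome, which rose by 1.34. The effector BomBc2, a short Toll-induced peptide, lay at 0.27, 0.53 and 1.29 in the 24 h samples and -2.09, -1.72 and -2.26 in the 0 h samples, 6.59-fold higher (3.40 to 12.8). Drs, the antifungal peptide drosomycin, lay at -0.09, -0.63 and 1.46 in the 24 h samples and -1.88, -1.84 and -1.94 in the 0 h samples. Its 4.39-fold rise (2.20 to 8.75) did not pass with the covariate (1.91, adjusted p = 0.239) or after quantile normalization (1.37, adjusted p = 0.0602). BomBc2 did not pass with the covariate (2.56, adjusted p = 0.0835). The NF-kB genes Rel and dl rose by 1.11 and 0.77, and the dl call ended with the covariate (1.10, adjusted p = 0.0892).

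Blood cells and fat body are main sources of antimicrobial peptides and of basement membrane, so markers of other cell types were read beside them. Of 15 hemocyte markers 3 were listed. The gene atilla, a Ly6-family surface protein of lamellocytes, lay at 1.41, 1.38 and 1.33 in the 24 h samples and -2.62, -2.54 and -2.23 in the 0 h samples. It rose 14.3-fold (11.47 to 17.8, adjusted p = 2.28e-15), and its groups were tight. The type IV collagens Col4a1 and vkg rose 2.53-fold (1.99 to 3.22) and 2.11-fold (1.74 to 2.55), and Col4a1 did not pass with the covariate (0.99, adjusted p = 0.0547). The other 12, among them Hml, NimC1 and eater, were not listed. Of 14 fat body markers Yp1, a yolk protein made by adult females, was listed. Its values were -0.70, 1.23 and 1.18 in the 24 h samples and -2.61, -2.51 and -2.65 in the 0 h samples, 8.92-fold higher (4.54 to 17.5). The 24 h replicate 1 lay well below the other cultured samples. None of 14 ovary markers was listed, and of 33 gut markers Mal-A5, a maltase, was listed and rose by 1.11 ± 0.13. Of 7 trachea markers serp and verm were listed, with the values given above. Muscle markers were listed for 4 of 24. Mef2 rose 2.31-fold (1.95 to 2.75), if and Mlc2 rose by 1.36 and 0.94, with both calls ended by the covariate (adjusted p = 0.306 and 0.298), and bt, at 0.31 ± 0.20, did not pass.

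Neuronal markers went both ways. Appl, the amyloid precursor relative, rose 4.52-fold (3.33 to 6.14), at 1.04, 0.98 and 0.80 in the 24 h samples and -0.92, -1.50 and -1.29 in the 0 h samples. Snap25, a SNARE of synaptic vesicle release that is no list member, rose 13.1-fold. The gene sens, a factor of sensory organ precursors, fell by 1.22. That call ended with the covariate (-1.47, adjusted p = 0.187) and without 0 h replicate 1 (-0.85). The microtubule gene futsch rose by 0.67, and its call also ended with the covariate (0.72, adjusted p = 0.347) and after quantile normalization. It ended too without 24 h replicate 3 or 0 h replicate 2 (0.60 and 0.55). Of 10 leg disc markers ap alone was listed. It was lower by -0.35 ± 0.12 in the fit, and passed in 5 of 13 alternative fits. It did not pass with the covariate, or after quantile normalization or median centring. Nor did it pass without 24 h replicate 2, 0 h replicate 2 or 0 h replicate 3 (-0.29, -0.32 and -0.31). No gene of the anterior and posterior compartments (en, inv, hh, ci, ptc) and none of the male dosage compensation genes was listed, so the region and sex labels could not be checked from named rows. Centred values give no summed level for a marker list, and the part of other cells in these results was not tested.

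Extracellular matrix and adhesion genes rose with the collagens. Of 61 genes 12 were listed, 10 rose and 2 fell (median 0.686), and 3 rose with the covariate. Tig, the integrin ligand tiggrin, lay at -0.13, -0.27 and 0.42 in the 24 h samples and -1.61, -1.05 and -1.68 in the 0 h samples, 2.75-fold higher (1.90 to 3.98). The laminin gene LanA and the perlecan gene trol rose by 0.68 and 0.55. Both calls ended with the covariate (0.185, adjusted p = 0.662, and 0.53, adjusted p = 0.253), and that of trol also after quantile normalization. SPARC, a collagen-binding protein, rose by 0.40 ± 0.12, and passed in 6 of 13 alternative fits. Its call ended with the covariate, after quantile normalization, and in the fit of the 2 groups alone. It also ended without 24 h replicate 1, 24 h replicate 3 or 0 h replicate 1 (0.35, 0.37 and 0.35). In the list of the JNK pathway and wounding, 12 of 25 were listed, with 4 that rose, 3 that fell and 5 that did not pass. With the covariate 0 rose and 2 fell, and after scaling on the hybridization controls 7 rose and 0 fell. The ligand gene Pvf1, its receptor Pvr and bsk, the JNK kinase, fell by 1.36, 0.93 and 0.75. Pvf1 lay at -0.56, -0.94 and -1.34 in the 24 h samples and 0.47, 0.70 and 0.09 in the 0 h samples, so its groups were apart. The gene egr, the fly TNF, rose by 1.35 ± 0.27, but its groups overlapped, with 0.91, -0.51 and 0.72 in the 24 h samples and -0.51, -1.28 and -1.15 in the 0 h samples. The egr and bsk calls ended with the covariate (adjusted p = 0.638 and 0.163). Ilp8 (-0.38), Mmp1 (0.04), kay (-0.14) and Gadd45 (-0.13) did not pass.

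Signalling and patterning genes were listed in small numbers, where the members are 3018 of the array's 18952 probe sets. Whether the share of any of these lists differs from that of the array was not tested. Of 35 leg patterning genes 3 were listed, and Poxn fell by 0.74, which did not pass with array weights (-0.67, adjusted p = 0.0529). The gene tio rose by 0.57, a call that ended with the covariate (0.62, adjusted p = 0.174) and after quantile normalization. For JAK/STAT 4 of 12 were listed. The gene chinmo, a BTB zinc finger factor of that pathway, lay at 0.97, 0.38 and 0.20 in the 24 h samples and -1.75, -1.47 and -2.64 in the 0 h samples, 5.55-fold higher (3.92 to 7.85). Su(var)2-10, the PIAS inhibitor, rose by 1.18 as deposited with overlapping groups, and was at -0.38 (adjusted p = 0.529) with the covariate. Swim was the sole Wnt list gene of 18. It rose 4.61-fold (3.06 to 6.94), which did not pass with the covariate (1.09, adjusted p = 0.2). For EGFR signalling 2 of 16 were listed, ru, a rhomboid protease that releases ligands, at 3.04-fold higher (2.16 to 4.28), and the ligand gene Krn, whose rise of 0.73 ended with the covariate. Notch (1 of 18), Dpp and Activin (2 of 17), Hippo (1 of 16) and disc eversion (2 of 15) had few listed genes, of which mib1 and Smox rose by 0.62 and 0.78 and lost their calls with the covariate. No Hedgehog gene of 10 was listed.

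Detoxification genes were divided, with 21 of 98 listed, 10 that rose and 7 that fell (median 0.507), but 13 rose and 0 fell after scaling on the hybridization controls (median 1.344). Ugt35A1, a glucuronosyl transferase, and GstT4, a glutathione transferase, rose 3.44-fold (2.39 to 4.95) and 2.96-fold (2.49 to 3.53). The genes that fell included the peroxiredoxins Prx6a, Prx3 and Prx4 and the mitochondrial superoxide dismutase Sod2, by 0.47 to 0.78. MtnA, a metallothionein, and GstE1 rose by 1.45 and 1.12, and both calls ended with the covariate (2.15, adjusted p = 0.0989, and 0.77, adjusted p = 0.306). The MtnA call also ended after quantile normalization and without 24 h replicate 3 (1.06). With the covariate 4 genes of the list rose and 5 fell. Of 22 lipid genes 5 were listed. The gene bgm, an acyl-CoA synthetase, lay at -0.78, -0.78 and -0.95 in the 24 h samples and 2.42, 0.91 and 0.92 in the 0 h samples, 4.78-fold lower (2.81 to 8.13). Lsd-2, a lipid droplet protein, fell by 0.78. The genes mdy, a diacylglycerol acyltransferase, and Lpin rose by 1.12 and 0.86, and whd, carnitine palmitoyltransferase, by 0.80. The calls of mdy and whd ended with the covariate (adjusted p = 0.116 and 0.835).

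Several of the largest changes belonged to no list. Ude, an enzyme that degrades uracil-containing DNA, lay at 1.56, 1.44 and 1.31 in the 24 h samples and -3.19, -2.34 and -3.54 in the 0 h samples, 22.03-fold higher (14.9 to 32.5). Its 24 h samples agreed closely. Miox, myo-inositol oxygenase, rose 17.3-fold (9.60 to 31.1), and mthl2, a receptor of the methuselah family, 17.6-fold (10.5 to 29.4). CG6142 and CG4404, for which no role is given here, rose 20.5-fold and 14.7-fold. Among the falls, CG9416 was 16.4-fold lower (11.8 to 22.7), at -1.26, -1.32 and -1.56 in the 24 h samples and 3.17, 2.40 and 2.38 in the 0 h samples. CG3823, nemy, a cytochrome b561 relative, and Spn100A, a serpin, were 9.03-fold, 7.57-fold and 7.55-fold lower. CG15282 was 12.5-fold lower (3.97 to 39.6) and did not pass with the covariate (-4.26, adjusted p = 0.0984). A probe set without a name, 1640975_at, had the largest rise but one. It lay at 1.90, 2.74 and 2.92 in the 24 h samples and -3.89, -3.19 and -3.90 in the 0 h samples, 72.4-fold higher (43.0 to 122.1). Of the 172 unnamed rows, 102 rose and 57 fell.

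Some changed genes were neighbours. Among the 727 genes past the threshold with a change of 2-fold or more, 46 adjacent pairs occurred in the order of the reference annotation, and 35 pairs moved the same way. They include vkg and Col4a1, which share a divergent promoter region, reb and exp (3.60 and 1.46), bero and CG9338 (3.12 and 2.23), Jheh1 and Jheh2, Esyt2 and REPTOR (2.70 and 1.74), and nyo with its relative mey (-2.16 and -1.89). These pairs were picked after their values were seen, and reb, exp, bero, CG9338, Esyt2 and mey were not followed into the fit with the covariate. No comparison with chance was made.

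The 24 h state was next set against 12 h of culture in the same region. This comparison uses the same 24 h samples and none of the 0 h ones. At 24 h, the cuticle gene TwdlE and the chitin deacetylase gene Cda5 were higher still and the ecdysone effector ImpE1 lower still than at 12 h. Across the array 407 probe sets passed (2.17%), 0.453% higher and 1.72% lower at 24 h. Among listed genes 75 were higher and 283 were lower at 24 h, and 2360 did not pass. ImpE1 lay at -2.18, -2.03 and -2.51 after 24 h and -0.74, -0.41 and -0.65 after 12 h, and was 3.12-fold lower at 24 h (log2 interval -2.14 to -1.14, adjusted p = 0.00128). CG9416 was 2.77-fold lower (adjusted p = 0.00201), at -1.26, -1.32 and -1.56 after 24 h and 0.12, 0.13 and 0.01 after 12 h. These 2 calls held in all 13 alternative fits. Both mnd and Fkbp14 were lower at 24 h, by 1.56 and 1.31, and passed in 9 and 10 of the 13. Cpr49Ac and CG14191 had the largest falls that passed, -1.95 and -1.82, but their adjusted p reached 0.195 and 0.175 across the 13 alternatives, and they passed in 3 of them.

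Of the genes higher at 24 h than at 12 h, CG6142 (1.59 ± 0.31), Syt4, a synaptotagmin (1.64 ± 0.30), and CG8927 (1.81 ± 0.37) passed in 11 of 13 alternatives. TwdlE lay at 0.73, 0.67 and 1.73 after 24 h and -1.50, -1.65 and 0.44 after 12 h, a difference of 1.95 ± 0.46 that passed in 7 of 13. CG13305 and Cpr64Aa passed in 8 and 6. Cda5, obst-E and obst-B were higher at 24 h by 1.59, 1.11 and 0.77 and passed in 13, 4 and 10 of 13. The ftz-f1 gene was higher by 1.04 (adjusted p = 0.00313) and passed in 13. Cpr100A was at 2.04, 2.84 and 4.54 after 24 h and -0.51, 1.62 and 1.31 after 12 h, and its difference of 2.34 ± 0.80 did not pass (adjusted p = 0.135). Thor, at 1.13 ± 0.31, did not pass either (adjusted p = 0.0577). The respiratory chain had 25 of 47 listed genes lower at 24 h than at 12 h on the deposited scale, the mitochondrial ribosome 19 of 40 and the proteasome 8 of 29, with 0 higher in each. The median differences of these lists were -0.39, -0.408 and -0.381. The hybridization controls averaged -0.452 after 24 h and 0.005 after 12 h, and scaling on them was not run for this comparison. On control-scaled values these falls could therefore be absent. The actin 3′ minus 5′ signal averaged 0.76 after 24 h and -0.1 after 12 h. Without 12 h replicate 1 the array count of 407 dropped to 45. It was 175 and 174 without 24 h replicates 1 and 2, and 191 without 12 h replicate 2.

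**Figure D4:**
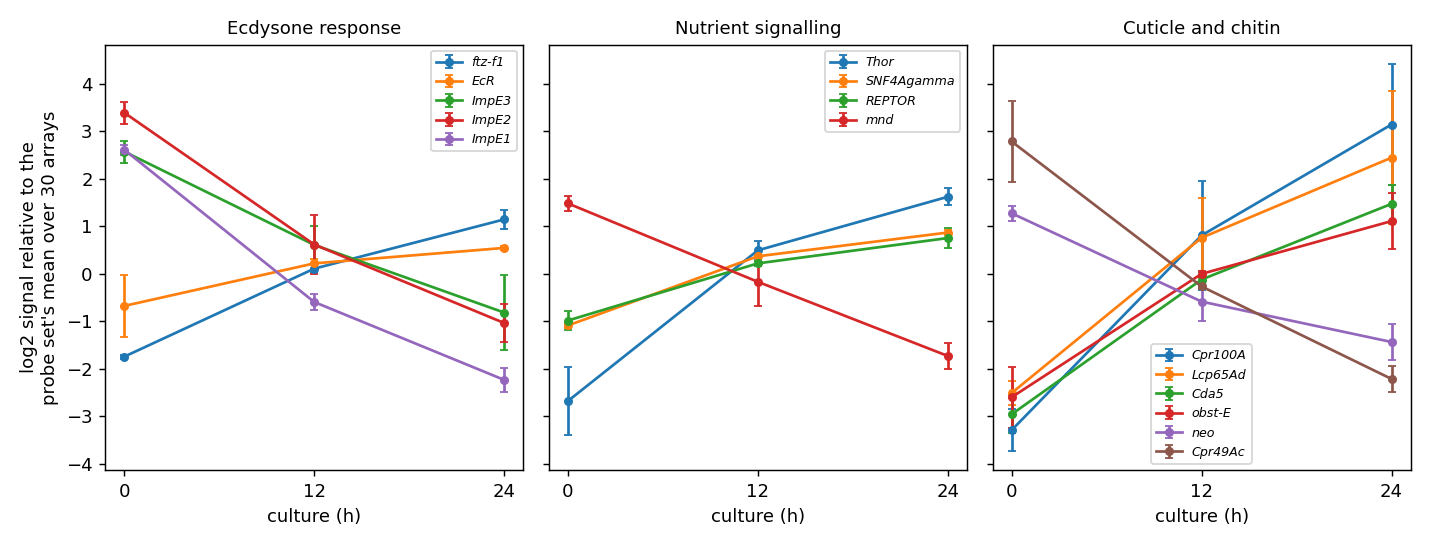
Mean log2 signal relative to each probe set's mean over 30 arrays after 0, 12 and 24 h of culture in the uncut anterior region, with bars for the SD of 3 samples. Means of ftz-f1 climb at each step and those of ImpE1 fall at each step, with group means of 2.61 at 0 h, -0.60 at 12 h and -2.24 at 24 h for ImpE1. The SD at 24 h was 1.28 for Cpr100A and 1.39 for Lcp65Ad.

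Against 0 h, the 12 h samples share the uncultured arrays with the 24 h comparison, so the values are given side by side only. ImpE1 was at -3.21 after 12 h and -4.85 after 24 h, Thor at 3.17 and 4.30, ftz-f1 at 1.85 and 2.89, and Cda5 at 2.84 and 4.43. Among all probe sets 15.8% passed at 12 h.

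The posterior region of uncut discs was cultured for as long and shares no arrays with the anterior one. At 24 h, 24.1% of all probe sets passed there. Of the 1361 genes that rose in the anterior region, 1287 rose in the posterior region and 0 fell. Of the 1194 that fell, 1015 fell and 3 rose. The authors' filter also covers the posterior comparisons, so high shares among listed genes are built in. Over all probe sets tested, 2632 rose in the anterior region, of which 1744 rose and 4 fell in the posterior region. Of the 3388 probe sets that fell, 1304 fell there and 8 rose. Across the 2718 genes the anterior and posterior differences correlated with r = 0.927, and across all probe sets with r = 0.791. Genes are not independent replicates, and both regions came from cultured and uncultured discs of the same kind, so r is a description.

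The difference between the regions was then tested itself. It passed for 240 probe sets of the array (1.28%; 0.666% more positive and 0.613% more negative in the anterior region). Among listed genes it passed for 39 with a more positive and 60 with a more negative value in the anterior region. The actin 3′ minus 5′ signal differed more between 24 h and 0 h in the anterior (1.76) than in the posterior region (0.666), and after quantile normalization 8 probe sets passed. That step was run on the deposited values, already centred per probe set, and gives every array the same distribution of values. How far it removes real change was not tested. The test of the region difference is therefore given with the number of the 19 alternative fits in which it passed.

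CG5493 passed in 19 of 19. It lay at -0.11, -0.23 and -0.02 in the 24 h anterior and -0.25, -0.01 and 0.15 in the 0 h anterior samples, but at -1.25, -0.68 and -0.65 in the 24 h posterior and 1.51, 1.64 and 1.83 in the 0 h posterior samples. Only the posterior groups separated, so the anterior change minus the posterior one was 2.43 (interval 1.58 to 3.28, adjusted p = 0.00388). CG43111 passed in 18 of 19, with 1.502 (0.99 to 2.01). It rose by 1.22 in the anterior region, a call that ended with the covariate, while the posterior value of -0.28 did not pass. MFS14, a transporter of the major facilitator family, had a difference of 2.03 and passed in 11 of 19. It fell by 2.49 in the posterior region and was at -0.47, not past the threshold, in the anterior one. CG14598 fell by 1.92 in the anterior region (a call that ended with the covariate) and by 3.68 in the posterior region, a difference of 1.76 that passed in 15 of 19.

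The calls of Yp1 and regucalcin held in few alternatives. Yp1 rose by 3.16 in the anterior region, while its posterior value was 0.41, and the difference of 2.74 (1.37 to 4.12) passed in 6 of 19. Its posterior samples lay at 0.56, -0.11 and 0.07 after 24 h and -0.08, -0.52 and -0.12 at 0 h, so its 0 h anterior samples lay below all the 0 h posterior ones. For regucalcin, a calcium-binding protein, 1.88 passed in 9 of 19, and its anterior rise of 1.61 itself ended with the covariate (0.34, adjusted p = 0.769). The collagens Col4a1 and vkg, adjacent genes, both rose in the anterior region and were at 0.20 and 0.19, not past the threshold, in the posterior one. Their differences of 1.14 and 0.88 passed (adjusted p = 0.0175 and 0.0199), each in 15 of 19 alternatives, and not after quantile normalization or with the covariate. PGRP-SA and Cda5 rose in both regions, by 1.16 and 1.36 more in the anterior, which passed in 8 and 13 of 19.

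On the other side, CG5687 was higher by 0.79 in the anterior and 2.74 in the posterior region, a difference of -1.94 (-2.59 to -1.29) that passed in 18 of 19. Its anterior rise ended with the covariate and after quantile normalization. CG5326 lay at -0.03, 0.07 and -0.08 in the 24 h anterior and -0.33, -0.02 and -0.40 in the 0 h anterior samples, which overlap, and at 0.60, 0.63 and 0.78 in the 24 h posterior and -1.16, -0.88 and -0.99 in the 0 h posterior samples. Its difference of -1.45 passed in 18 of 19, but another listed probe set of the gene rose by 2.28 in the anterior region. Arc1, which forms capsid-like particles around its own messenger RNA, rose by 1.19 in the anterior and 2.81 in the posterior region, and -1.62 passed in 16 of 19. The anterior rise of Arc1 ended with the covariate (0.29, adjusted p = 0.742), and a second listed probe set, at 0.51, did not pass. ImpE1 fell more in the anterior than in the posterior region, by 4.85 and 3.11, and the difference of -1.74 passed in 17 of 19. Eip75B of the ecdysone list was at -1.82 and -0.65, and its difference of -1.17 passed (adjusted p = 0.00343). It was not followed through the alternative fits of this test. CG32444 (-1.47) passed in 17 of 19, though its anterior fall ended with the covariate, and CG31871 (-1.44) in 10. Buffy, of the apoptosis list, rose by 0.70 in the anterior and 1.89 in the posterior region (-1.19, adjusted p = 0.0387, passed in 9 of 19). Of the 73 listed probe sets with a more positive anterior value, 32 carried no gene name, against 6 of the 69 with a more negative value. Among all 3003 listed probe sets, 172 carried none. The array count of 240 ranged from 83 to 340 when single arrays were left out. In the anterior region it was 131 and 152 without 24 h replicates 1 and 2, and 114 without 0 h replicate 3. In the posterior region it was 158, 145 and 106 without 24 h replicates 1, 2 and 3, and 109 and 83 without 0 h replicates 1 and 3.

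**Figure D5:**
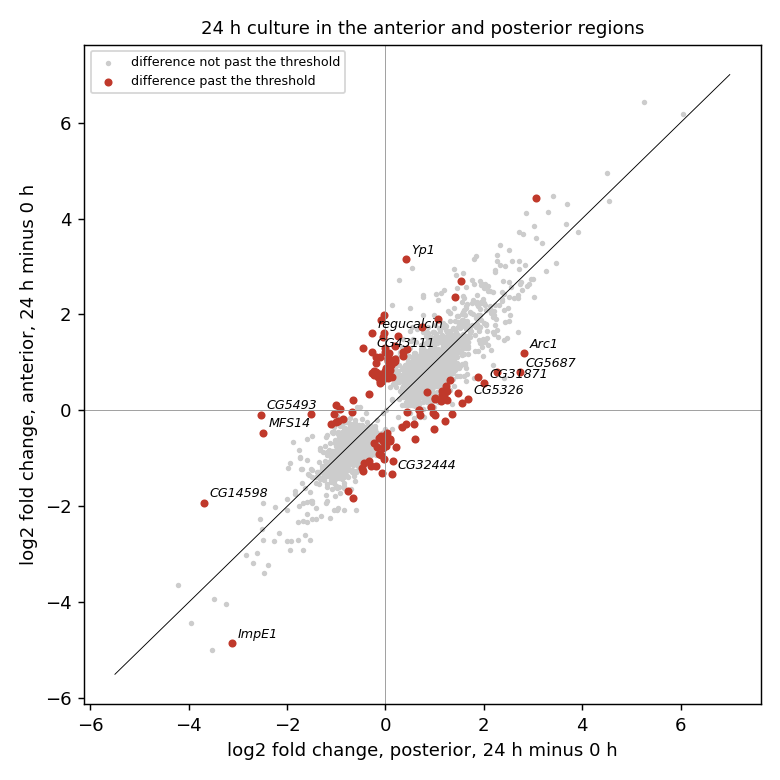
Log2 difference of 24 h minus 0 h for all 3003 listed probe sets in the posterior (horizontal axis) and anterior region (vertical axis) of uncut discs, with the line of equal change. Red points passed the test of the difference between regions, and the genes with the largest differences are named. Most points follow the line, CG5493 and MFS14 lie near 0 in the anterior region and below -2 in the posterior one, and CG5326 and CG5687 lie to the right of the line.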

How the data were processed

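Messenger RNA of leg disc regions was measured on Affymetrix arrays, 30 samples in 10 groups of 3, grouped by their GEO labels. The log2 values used per array are those the authors deposited, made with RMA and tested with limma per the submitters' processing notes, which give no versions. Tested on the files, these values have a mean of 0 per probe set over 30 arrays, and their group differences equal the deposited log fold changes. The authors' deposited table of culture comparisons also holds an overall adjusted p-value and, per its header, 4 log fold changes. Base 2 is assumed.

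Here, limma 3.58.1 in R 4.3.3 was fitted to all 30 arrays with 1 mean per group (20 residual and 25.26 total degrees of freedom), without 183 control probe sets. Contrasts were 24 h minus 0 h anterior, 24 h minus 12 h anterior and the anterior minus the posterior change. The fit was tested on simulated data. Gene names are those of the table, updated through the RefSeq gene table of Release 6 plus ISO1 MT: 2254 rows kept their name, 543 matched a synonym, 24 were ambiguous and 10 unmatched. Centred values have no level, so the probe set with the smallest residual SD stood for a gene, in place of the planned one with the highest mean. Named genes are the 12 largest rises and falls, the 6 largest of each sign in the other contrasts, and in each list its first 3 genes and the 4 with the largest change past the threshold, and markers past it. Others were chosen after their values were seen. Members and lists were chosen with earlier results of these data known. P-values measure the spread between arrays. A permutation test of 3 against 3 cannot go below 0.1, and none was run.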

Additional observations from a re-analysis of the deposited data

Results flagged for a closer look

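The change over 24 h of culture differed between the anterior and posterior regions, by the test of the difference itself, for 12 named genes. The anterior change minus the posterior one was 2.74 for Yp1, 2.43 for CG5493, 2.03 for MFS14, 1.88 for regucalcin, 1.76 for CG14598 and 1.502 for CG43111 (log2). It was -1.94 for CG5687, -1.74 for ImpE1, -1.62 for Arc1, -1.47 for CG32444, -1.45 for CG5326 and -1.44 for CG31871. After quantile normalization the region difference passed for CG5493 alone of these 12. With the actin 3′ minus 5′ signal as a covariate it did not pass for CG31871, CG32444, ImpE1, Yp1 and regucalcin. With that covariate the anterior change over culture itself did not pass for Arc1, regucalcin, CG14598, CG43111, CG32444 and CG5687, which had passed as deposited, and the part of RNA quality in them was not tested.

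Among manufacturer's control probe sets, which enter no comparison, 4 that the files do not annotate were higher in the 24 h than in the 0 h anterior samples by 4.531, 4.203, 3.647 and 3.438 (log2). The first of these lay at 1.00, 1.08 and 0.894 in the 24 h samples and -3.39, -3.64 and -3.59 in the 0 h samples. For those at 3.647 and 3.438, 0 h replicate 3 lay below the other 0 h samples, at -3.945 and -3.834.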

How the results depend on the processing

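The deposited values are centred per probe set, so a filter on dim probe sets and a prior variance that follows intensity were not run. Quantile normalization was run on these centred values. The 6020 calls of 24 h against 0 h became 3361 in a fit of these groups alone, 3455 after quantile normalization (50% higher, against 43.7%), 3962 with array weights, 948 at 2-fold or more, 2086 with the actin 3′ minus 5′ covariate and 15672 (15576 higher) after scaling on the hybridization controls. Leaving out single arrays gave 5069 to 6226. For 24 h against 12 h, 407 calls became 133 in the fit of these groups alone, 186 after quantile normalization (43% higher, against 20.9%), 239 with array weights, 48 at 2-fold and 176 with the covariate, and 45 to 304 with single arrays left out. For the region difference, 240 calls became 82, 8, 130, 70 and 60 under the same settings in that order, and 83 to 340 with single arrays left out. Median centring gave 5683, 309 and 245 calls, of which 53.2%, 31.4% and 59.2% were higher, and fits of the groups alone had 52.9%, 44.4% and 74.4% higher. Robust prior variances gave 5964, 378 and 241. The covariate, robust variances and control scaling were chosen after seeing the data. Fewer arrays were fitted in the groups alone; for the other settings the cause was not tested.

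Same-numbered 24 h and 0 h samples had deviations that correlated at 0.182, 0.18 and -0.076. Differently numbered samples were not compared, so these values cannot show whether the numbers pair samples. With the replicate block, 6109, 551 and 229 probe sets passed.

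Of 1820 values of 140 named genes in 24 h against 0 h under 13 alternatives, 1728 kept direction and side of the threshold, 86 no longer passed (46 of them with the covariate), 1 newly passed and 5 changed sign. CG5493 ranged from -0.1958 to 0.0051 with single arrays left out, the highest without 0 h replicate 3. With the covariate CG5493 was at 0.058, MFS14 at 0.4557, Su(var)2-10 at -0.3804 and mib1 at -0.1396. For 24 h against 0 h, futsch passed in 8 of the 13 alternatives and MtnA in 9. In the same comparison sens and Buffy passed in 10, and Ldh, CycA and Cpr in 11. Among named genes past the threshold, 219 of 611 values of 47 genes no longer passed for 24 h against 12 h, and 89 of 323 values of 17 genes for the region difference, with 0 changes of sign. Taking the probe set with the largest test statistic for each gene left all 72 list counts within 1.5 times.

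The number of arrays, 3 a group, limits the precision, and signal over background is unknown from centred values.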
